A study of Mus musculus with 48 samples.

Results

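The genes described here code for voltage-gated sodium channel subunits of the mouse cortex, 4 pore-forming alpha subunits (Scn1a, Scn2a, Scn3a, Scn8a) and 3 auxiliary beta subunits (Scn2b, Scn3b, Scn4b). They were chosen by name, with earlier results of these data known, and all 7 of 7 were found among the 48526 genes counted. The study followed RNA and ribosome-associated RNA of synapses during maturation and aging. Cortices of 12 untreated wild-type male C57BL/6JRj mice were used, 4 at 3 weeks (3w, mice 187 to 190), 4 at 5 months (5m, mice 191 to 194) and 4 at 18 months (18m, mice 195 to 198). The sample titles give 6 months for the middle age, while the protocol gives 5 months, which is used here. Each mouse gave 4 libraries. Total homogenate (TH) holds all RNA of the tissue, and synaptosomes (SYN) are the sealed nerve endings collected from a sucrose gradient. From both, RNA was sequenced before (input) and after pelleting of ribosomes through a sucrose cushion (SC), which gave input_TH, SC_TH, input_SYN and SC_SYN. The TH lysate was cleared by centrifugation before the cushion and input_TH was not, so SC_TH and input_TH differ by that step too. A cushion pellet can hold any particle as dense as a ribosome, and synaptosomes carry attached glial and postsynaptic fragments.

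Voltage-gated sodium channels open when the membrane is depolarized and carry the rising phase of the action potential. One alpha subunit forms the pore, and beta subunits, which are single-pass membrane proteins with an immunoglobulin domain, tune gating and bind adhesion partners. In cortex, Scn1a (Nav1.1) is known for its role in inhibitory interneurons, Scn2a (Nav1.2) for immature axons and dendrites of excitatory neurons, Scn8a (Nav1.6) for the mature axon initial segment and nodes of Ranvier, and Scn3a (Nav1.3) for its high level before birth. Scn2b and Scn4b are bound to alpha subunits by a disulfide bridge, whereas Scn3b is not, and Scn4b is abundant in striatal projection neurons.

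In GRCm38, 3 alpha genes lie on chromosome 2. Scn3a runs from 65457118 to 65567627 on the minus strand, Scn2a from 65620771 to 65767447 on the plus strand and Scn1a from 66270778 to 66440840 on the minus strand. Scn8a lies on chromosome 15 from 100869858 to 101045938 on the plus strand. The beta genes are on the plus strand of chromosome 9, Scn3b from 40269217 to 40291618, Scn2b from 45117782 to 45130070 and Scn4b from 45138395 to 45154152. Reads were counted without regard to strand, but 0.0% of the exonic length of any of the 7 genes is shared with another annotated gene on either strand. The alpha genes have between 11146 and 15766 exonic bases and the beta genes between 4656 and 5461.

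Libraries held between 1780267 and 18590040 counted reads, with the lowest totals in input_SYN at 3w. The lowest count of any of the 7 genes in any library was 220 (Scn3b in SC_TH at 3w), so all 7 passed every filter on low counts. Values are CPM, read counts relative to library size, after one scaling over the 48 libraries by trimmed means (TMM), and tests are edgeR's quasi-likelihood test over all genes with Benjamini-Hochberg adjustment at 0.05. The 4 libraries of a group come from 4 mice, so p-values measure the spread between mice together with that of library preparation. The preparations differed in their content. In input_SYN, all 6 astrocyte markers exceeded their input_TH levels at each age, with summed levels of 2576 to 3090 CPM against 796 to 925 CPM. At 5m, 6 of 6 microglia markers (279 to 595 CPM against 152 to 186 CPM over all ages) and 4 of 6 oligodendrocyte markers were higher too, 5 of 5 endothelial markers were lower (3.14 to 12.6 CPM against 121 to 198 CPM), and 6 of 6 nuclear RNAs such as Malat1 were lower (1724 to 4363 CPM against 16714 to 19561 CPM). Excitatory neuron markers gave a mixed picture with 3 of 5 higher and 1 lower at 5m, where Nrgn turned from higher (0.41 on the log2 scale) to lower (-0.24) when libraries were scaled by their totals, although their sum was larger in input_SYN (8889 to 12441 CPM) than in input_TH (3278 to 4545 CPM), and inhibitory neuron markers had 3 of 6 higher and 3 lower. Of all genes tested, 31.7%, 32.6% and 32.9% were higher and 39.3%, 40.1% and 39.4% lower in input_SYN at 3w, 5m and 18m. No marker was at 0 throughout a group. The part of these differences in the values below was not tested, and in such bulk samples fewer cells or fragments of a type cannot be told apart from less RNA in each.

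Divided by exonic length, Scn2b was the most abundant of the 7 in every fraction and Scn3a the least. In input_TH the median over 12 mice was 57.2 CPM per kb for Scn2b, followed by 33.4 for Scn4b, 28.3 for Scn2a, 27.9 for Scn8a, 13.4 for Scn3b, 13.0 for Scn1a and 5.28 for Scn3a. The ranges of the neighbours Scn4b, Scn2a and Scn8a overlapped, as did those of Scn3b and Scn1a. In input_SYN the order changed, with 242 CPM per kb for Scn2b, 127 for Scn2a, 96.6 for Scn8a, 95.7 for Scn4b, 47.1 for Scn1a, 36.1 for Scn3b and 13.6 for Scn3a. There the lowest library of Scn2a (112 CPM per kb) lay above the highest of Scn8a (102 CPM per kb), while Scn8a and Scn4b could not be separated. The SC libraries kept the order of input_SYN in both compartments. In SC_TH the medians ran from 83.9 CPM per kb for Scn2b over 47.0 for Scn2a, 39.2 for Scn8a, 34.5 for Scn4b, 21.5 for Scn1a and 15.5 for Scn3b down to 5.96 for Scn3a, and in SC_SYN from 187 over 117, 93.3, 78.4, 42.6 and 34.5 down to 12.9. Between mice of one group, Scn8a varied least and Scn4b most, with a median coefficient of variation of 6.29% and 17.8% over the 12 groups.

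**Figure D1:**
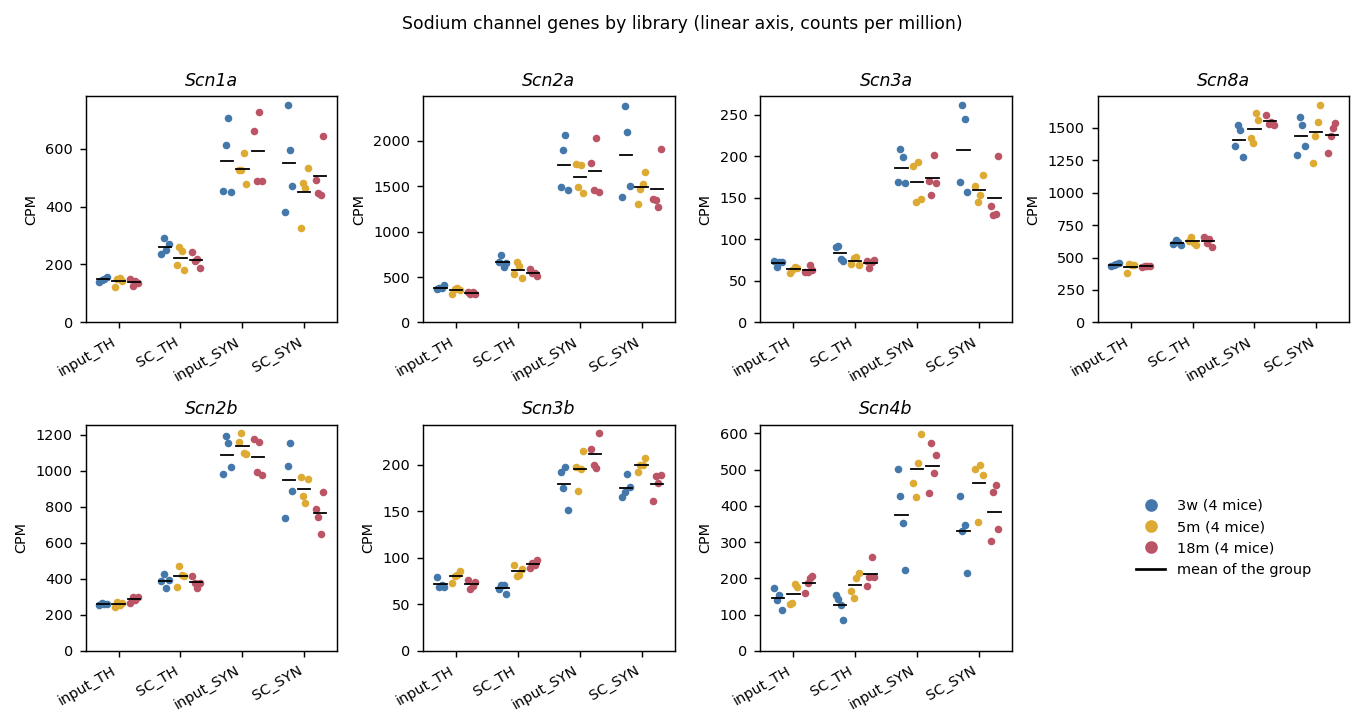
CPM (linear axis) of the 7 sodium channel genes in the 4 fractions, 1 point per library and 4 mice per age, with black lines for group means. All SYN libraries lie above all TH libraries of the same type and age for each gene, and age groups mostly overlap within a fraction.

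The first comparison asks which transcripts are concentrated in synaptosomes. In input, all 7 genes were enriched in SYN at 3w, 5m and 18m (7 of 7 higher each, edgeR), where 31.7%, 32.6% and 32.9% of all genes tested were higher. The log2 fold changes of the 7 genes ran from 1.29 to 2.37 with a median of 1.67, 1.81 and 1.84 at the 3 ages, against -0.18, -0.18 and -0.12 for all genes. The ratio was above 1 in 12 of 12 mice for each gene.

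Scn2a had the largest median ratio of input_SYN over input_TH, close to that of Scn2b, which it exceeded in 9 of 12 mice by 0.19 ± 0.24 (SD) on the log2 scale. At 5m the log2 fold changes of these genes were 2.18 and 2.14. Its input_TH libraries held 372, 376, 379 and 408 CPM at 3w, 315, 370, 384 and 352 at 5m, and 333, 315, 331 and 317 at 18m. In input_SYN they held 1487, 1901, 2069 and 1464 CPM at 3w, 1744, 1494, 1733 and 1425 at 5m, and 1761, 1459, 2032 and 1439 at 18m. The lowest SYN library, with 1425 CPM, was far above the highest TH library, with 408 CPM. The log2 fold change was 2.18 (SE 0.11, adjusted p = 5.97e-16) at 3w, 2.18 (SE 0.11, adjusted p = 5.16e-16) at 5m and 2.37 (SE 0.11, adjusted p = 1.04e-16) at 18m in edgeR. Within mice the ratio was 4.59-fold in the median and ranged from 3.59 to 6.15.

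Among the other alpha subunits, Scn1a reached a median of 3.82-fold (2.85 to 5.09) and Scn8a 3.51-fold (2.80 to 3.75). Scn8a, the subunit of mature initial segments, went from 378 to 455 CPM in input_TH to 1274 to 1614 CPM in input_SYN. Scn3a, the subunit with a high prenatal level, showed the smallest ratio of the alpha genes, 2.71-fold (2.27 to 3.15), from a median of 65.7 to 169 CPM. Of the beta subunits, Scn2b was 4.21-fold higher (3.24 to 4.76), while Scn4b with 2.86-fold (1.98 to 3.56) and Scn3b with 2.62-fold (2.13 to 3.18) had low ratios. The mean log2 ratio within mice was 2.23 for Scn2a, 2.03 for Scn2b, 1.95 for Scn1a and 1.77 for Scn8a, and 1.49 for Scn4b, 1.41 for Scn3a and 1.39 for Scn3b. In 12 of 12 mice Scn2a exceeded Scn1a, by 0.28 ± 0.052 (SD) on the log2 scale, Scn8a exceeded Scn3b, by 0.38 ± 0.13, and Scn2b exceeded Scn4b, by 0.55 ± 0.27. Scn3a and Scn3b could not be ordered beyond their spread.

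**Figure D2:**
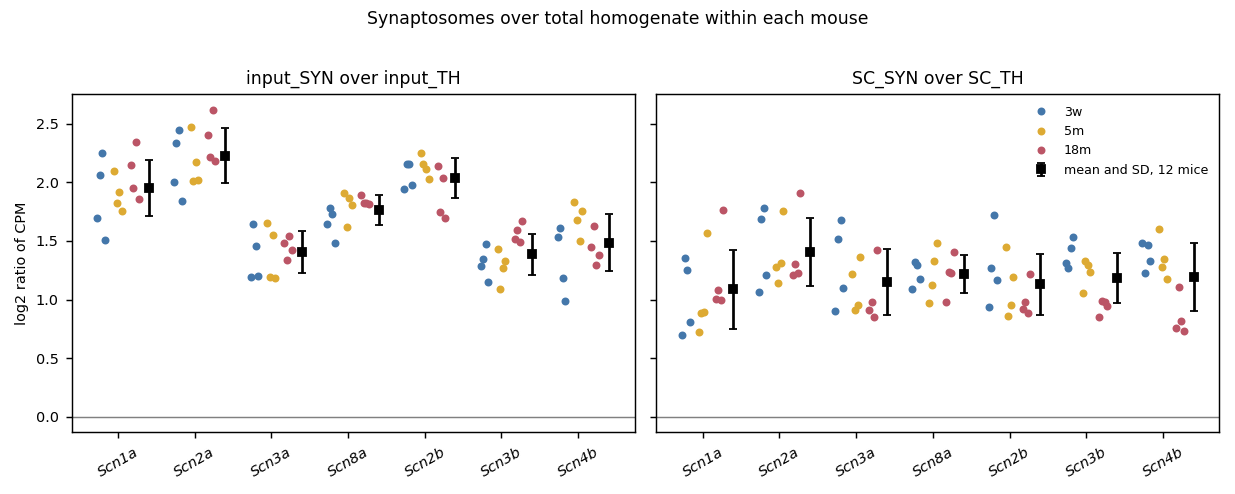
Log2 ratio of CPM in SYN over TH within each mouse, for input (left) and SC (right), with points for single mice coloured by age and black squares for the mean and SD of 12 mice. All points are above 0, and in the input panel Scn3a, Scn3b and Scn4b lie lowest.

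Synaptic translation was measured in the study as ribosome-associated RNA of SYN over that of TH. This ratio is not divided by the input RNA, which was itself higher in SYN for all 7 genes. For each gene the median ratio within mice was smaller in SC than in input. It was 2.44-fold against 4.59-fold for Scn2a, 2.11-fold against 4.21-fold for Scn2b and 2.38-fold against 2.62-fold for Scn3b. All 7 genes were higher in SC_SYN than in SC_TH at each age (7 of 7 each, edgeR), where 31.1%, 32.1% and 29.9% of all genes tested were higher at 3w, 5m and 18m. Log2 fold changes ran from 0.89 to 1.51, with medians over the 7 genes of 1.37, 1.24 and 1.09, against -0.04, -0.09 and -0.07 for all genes. No SYN library overlapped a TH library of the same age for any of the 7 genes. The share of all genes without such overlap was not computed. Of all genes tested, 10558, 11282 and 10321 of 16630 were called in either direction at 3w, 5m and 18m. The SC libraries of both compartments differed in markers as the input libraries did. At each age 6 of 6 astrocyte markers were higher in SC_SYN (4208 to 5850 CPM against 1469 to 1666 CPM). Of the nuclear RNAs, 6, 6 and 5 of 6 were lower (886 to 3554 CPM against 5386 to 13912 CPM), where 32.4%, 35.8% and 32.2% of all genes tested were lower. The median nuclear RNA sum at 3w, 5m and 18m was 1191, 1316 and 2593 CPM in SC_SYN. In SC_TH it was 12365, 9174 and 5565 CPM. The part of these marker differences in the result was not tested.

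Scn2a again had the largest median ratio within mice, 2.44-fold (2.09 to 3.75) in the median. Its SC_TH libraries held 661, 742, 611 and 651 CPM at 3w, 538, 665, 617 and 491 at 5m, and 587, 545, 543 and 509 at 18m. The SC_SYN libraries held 1382, 2387, 2098 and 1505 CPM at 3w, 1302, 1471, 1530 and 1659 at 5m, and 1361, 1343, 1268 and 1910 at 18m. Mice 188, 189 and 198 stood above the other mice of their age in SC_SYN, and did so for Scn1a, Scn3a, Scn8a and Scn2b as well. For Scn3b and Scn4b they did not all do so. Here the genes differed less than in input, with mean log2 ratios within mice of 1.09 to 1.41 against 1.39 to 2.23. Scn2a exceeded Scn1a by 0.32 ± 0.13 and Scn3a by 0.26 ± 0.13 in 12 of 12 mice, against 0.28 and 0.82 in input. No other pair of the 7 genes kept 1 order in every mouse. Scn3b, with a log2 fold change of 1.43 (SE 0.08, adjusted p = 2.23e-13) at 3w, 1.24 (SE 0.08) at 5m and 0.97 (SE 0.08, adjusted p = 1.60e-10) at 18m, and Scn4b, with 1.43, 1.37 and 0.89 (SE 0.20, 0.19 and 0.19), had lower values at 18m than before. The difference between 18m and 5m in this ratio was -0.27 (SE 0.11, adjusted p = 0.223) for Scn3b and -0.48 (SE 0.27, adjusted p = 0.355) for Scn4b in edgeR, so neither passed the test.

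The size of these folds rests on the scaling. When libraries were scaled by their totals and not by TMM, the median of all genes moved to between -0.59 and -0.83 on the log2 scale, the share of higher among all called genes went from between 44.6% and 49.0% to between 20.5% and 25.4%, and the 7 genes had log2 fold changes of 0.63 to 1.81 in input and 0.36 to 0.96 in SC. All stayed past the threshold except Scn4b in SC at 18m (0.36, SE 0.19, adjusted p = 0.0879 from edgeR).

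The next comparison, SC over input within a compartment, is the measure of translational efficiency (TE). In TH, 5 of 7 genes were higher in SC_TH at 3w, 5 at 5m and 6 at 18m by edgeR, where 26.1%, 29.9% and 31.3% of all genes tested were higher. Nuclear RNAs were lower in SC_TH (5386 to 13912 CPM) than in input_TH, with 5, 6 and 6 of 6 past the threshold at the 3 ages. Their median sum at 3w, 5m and 18m was 12365, 9174 and 5565 CPM in SC_TH and 19175, 18751 and 17225 CPM in input_TH. Excitatory neuron markers were higher in 5 of 5 at each age (5346 to 6547 CPM in SC_TH). In either direction, 9719, 11433 and 11791 of 18416 genes tested were called. How far these shifts carry into the sodium channel values was not tested.

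Scn2a and Scn1a had the highest TE in TH at 3w and 18m, while at 5m Scn2b lay between them. Scn2a had log2 fold changes of 0.81 (SE 0.08, adjusted p = 1.76e-09) at 3w, 0.70 (SE 0.08) at 5m and 0.77 (SE 0.08, adjusted p = 2.57e-09) at 18m in edgeR, and Scn1a had 0.83, 0.63 and 0.65 (SE 0.10 each). Scn8a followed with 0.48, 0.54 and 0.54 (SE 0.06 each), and Scn2b with 0.59, 0.68 and 0.42 (SE 0.07 each). Scn3a was higher by only 0.23, 0.21 and 0.19 (SE 0.07 each). Its values at 5m were 59.8, 63.3, 66.1 and 65.4 CPM in input_TH and 70.5, 77.1, 78.9 and 69.2 CPM in SC_TH, without overlap, while the groups overlapped at 3w and 18m. With library size the calls of Scn3a were lost at 5m (0.12) and 18m (0.14), and also without mouse 187 (0.20) or 188 (0.15) at 3w and without mouse 195 (0.16) or 198 (0.17) at 18m. In 12 of 12 mice the ratio of Scn2a was above that of Scn8a, by 0.23 ± 0.12 on the log2 scale, and above that of Scn3a, by 0.55 ± 0.095.

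The beta subunits Scn3b and Scn4b passed the test at fewer ages. Scn3b showed -0.08 (SE 0.07, adjusted p = 0.376) at 3w and 0.10 (SE 0.07, adjusted p = 0.224) at 5m, and was higher in SC_TH at 18m, by 0.40 (SE 0.07, adjusted p = 1.28e-05) in edgeR. At 18m the mice 195 to 198 held 76.0, 66.2, 69.7 and 73.6 CPM in input_TH and 89.0, 94.5, 91.8 and 98.0 CPM in SC_TH, so the groups did not overlap. Scn4b passed at no age, with -0.18, 0.22 and 0.18 (SE 0.16, 0.16 and 0.15), but did so at 5m without the filter on low counts (0.27, SE 0.10, adjusted p = 0.0326). Since the libraries of a mouse share an animal, the paired fit with the mouse as a block bears on Scn4b, whose level varied most between mice. It gave -0.20 (SE 0.08, adjusted p = 0.0328) at 3w, 0.22 (SE 0.07, adjusted p = 0.0106) at 5m and 0.17 (SE 0.07, adjusted p = 0.0378) at 18m, all past the threshold. In that fit Scn4b was lower in SC_TH at 3w and higher at 5m and 18m. With the trend on GC content and length also removed from the paired fit, none of these passed. The SC_TH over input_TH ratio of Scn4b was above 1 in 8 of 12 mice.

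**Figure D3:**
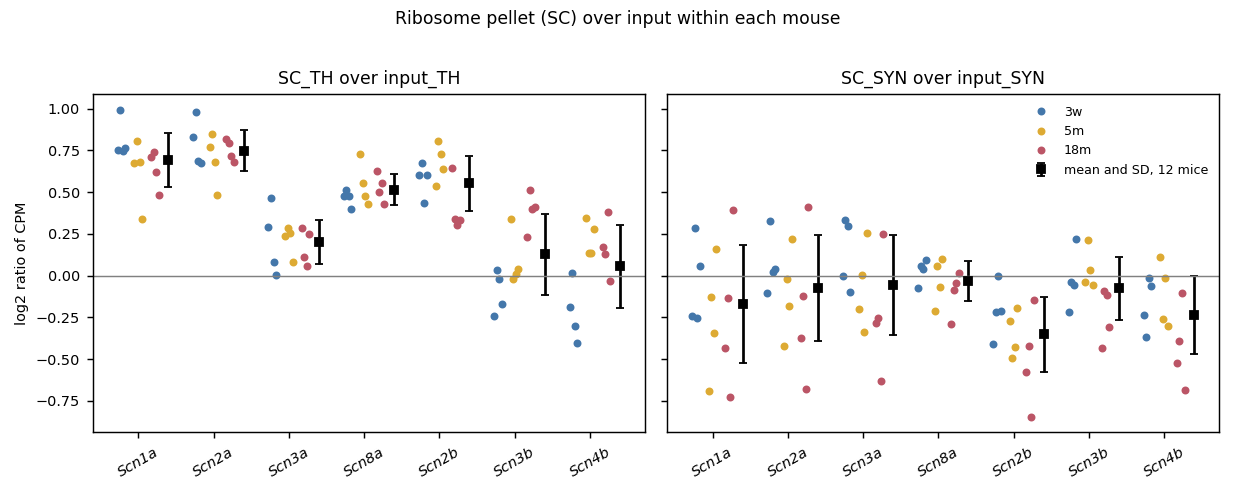
Log2 ratio of CPM in SC over input within each mouse, for TH (left) and SYN (right), with points for single mice coloured by age and black squares for the mean and SD of 12 mice. In TH the points of Scn1a, Scn2a, Scn3a, Scn8a and Scn2b are above 0 in 12 of 12 mice, and in SYN the points of Scn2b are below 0 in 12 of 12 mice.

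In SYN, few of the 7 genes differed between SC and input beyond the spread between mice. No gene was higher in SC_SYN, and 0 of 7, 1 of 7 and 1 of 7 were lower at 3w, 5m and 18m, where 9.5%, 10.3% and 6.7% of all genes tested were lower (edgeR). At 3w, 0 of the 7 had an unadjusted p under 0.05 (4578 of 14301 genes tested did), and DESeq2 called 0 of the 7. The gene that was lower was Scn2b, the disulfide-bound beta subunit. Its input_SYN libraries held 981, 1191, 1155 and 1023 CPM at 3w, 1161, 1207, 1098 and 1091 at 5m, and 1175, 995, 1162 and 974 at 18m. In SC_SYN it held 740, 1026, 1153 and 885 CPM at 3w, 964, 860, 818 and 953 at 5m, and 788, 742, 647 and 881 at 18m. The groups overlapped at 3w and were apart at 5m and 18m. Its log2 fold changes were -0.22 (SE 0.12, adjusted p = 0.229), -0.37 (SE 0.12, adjusted p = 0.0348) and -0.50 (SE 0.12, adjusted p = 0.00856) in edgeR, and the ratio was below 1 in 12 of 12 mice, with a median of 0.792. The call at 5m was lost without any one of mice 191 to 194 (-0.32 to -0.42) and without the filter on low counts (-0.29). The call at 18m was lost without mouse 197 (-0.35). The median nuclear RNA sum at 3w, 5m and 18m was 2427, 2832 and 2904 CPM in input_SYN and 1191, 1316 and 2593 CPM in SC_SYN. The part of this difference in the values of the 7 genes was not tested.

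The other 6 genes had values from -0.41 to 0.14 in this comparison. For Scn8a the interval of the log2 fold change (2 SE either side) was narrow, with -0.10 (SE 0.09) as the value farthest from 0, at 18m. Scn4b at 18m had -0.41 (SE 0.19, adjusted p = 0.169), and in the paired fit with the mouse as a block -0.43 (SE 0.10, adjusted p = 0.0110), which passed. With the trend on GC content and length also removed from the paired edgeR fit, Scn4b passed at 18m (-0.46, adjusted p = 4.6e-04) and at 5m (-0.27, adjusted p = 0.0138). Scn3b at 18m had -0.24 (SE 0.09, adjusted p = 0.0736) and passed with DESeq2 (-0.25, adjusted p = 0.00809) and with the trend on GC content and length removed (-0.25, adjusted p = 0.0359). It also passed in the paired edgeR fit with that trend removed (-0.25, adjusted p = 0.0441). Over the 12 mice, Scn2b lay below Scn8a in 12, by 0.32 ± 0.20, and below Scn3a in 12, by 0.30 ± 0.16.

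Age was compared within each fraction, from 3w to 5m (maturation) and from 5m to 18m (aging). Of the 7 genes, 2 rose from 3w to 5m in SC_TH by edgeR, Scn3b and Scn4b, where 9.48% of all genes tested rose. Library totals in SC_TH were 3058278 to 7119395 reads at 3w, 5992223 to 13484631 at 5m and 9612408 to 15423546 at 18m. The part of these totals in the age values was not tested. In the other 7 age comparisons 0 of 7 passed. The share of all genes called in either direction was 11.8% in input_TH, 3.22% in input_SYN and 8.05% in SC_SYN from 3w to 5m, and 15.5% in input_TH, 2.17% in SC_TH, 0.139% in input_SYN and 0.014% in SC_SYN from 5m to 18m. At an unadjusted p under 0.05 there were 2, 4, 1 and 2 of the 7 genes in input_TH, SC_TH, input_SYN and SC_SYN from 3w to 5m. Of all genes tested, 4617 of 18078, 5533 of 16427, 2197 of 12975 and 3723 of 14240 were under it. From 5m to 18m there were 3, 0, 0 and 0 of the 7 in the same order. Of all genes tested, these were 5661 of 18078, 2878 of 16427, 1214 of 12975 and 2474 of 14240.

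Scn3b rose in SC_TH from 66.8, 70.7, 70.2 and 60.6 CPM at 3w to 92.7, 79.8, 81.7 and 88.1 CPM at 5m, which is 0.35 on the log2 scale (SE 0.08, adjusted p = 0.00595, edgeR). The 2 ages did not overlap, and at 18m the libraries held 89.0, 94.5, 91.8 and 98.0 CPM. In input_TH the same gene held 78.8, 69.0, 71.2 and 68.1 CPM at 3w and 73.2, 80.8, 81.2 and 85.7 CPM at 5m, which overlapped (0.15, SE 0.06, adjusted p = 0.133).

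Scn4b rose in SC_TH from 153, 141, 126 and 85.1 CPM at 3w to 165, 146, 201 and 215 CPM at 5m, by 0.52 on the log2 scale (SE 0.16, adjusted p = 0.0296, edgeR), with the groups overlapping. Mouse 190 was the lowest at 3w in all 4 fractions, with 112 CPM in input_TH, 223 in input_SYN and 214 in SC_SYN. The call did not hold with the trend on GC content and length removed (0.39, adjusted p = 0.0888) or without any one of mice 188, 189, 190, 193 and 194, where values ran from 0.36 (without mouse 190) to 0.57 (without mouse 188). In the other fractions Scn4b showed 0.10 (SE 0.13) in input_TH, 0.38 (SE 0.17) in input_SYN and 0.45 (SE 0.19, adjusted p = 0.151) in SC_SYN. In SC_TH, 4 of 6 nuclear RNAs fell from 3w to 5m (10516 to 13912 CPM at 3w, 7569 to 11216 CPM at 5m), 6 of 6 oligodendrocyte markers fell (3411 to 4199 CPM, then 1686 to 1876 CPM) and 3 of 6 inhibitory neuron markers rose (493 to 565 CPM, then 581 to 758 CPM). Of 16427 genes tested there, 2948 were called in either direction, 1558 of them higher at 5m. The part of these marker changes in the values of Scn3b and Scn4b was not tested.

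For the alpha subunits of chromosome 2 the age values pointed down from 3w to 5m without passing the test. Scn1a, Scn2a and Scn3a had -0.24, -0.20 and -0.17 in SC_TH and -0.33, -0.34 and -0.42 (SE 0.19, 0.17 and 0.17) in SC_SYN. Without mouse 192, Scn1a (-0.33, adjusted p = 0.0324) and Scn2a (-0.28, adjusted p = 0.0232) passed in SC_TH. In input_TH, Scn3a went from 73.8, 66.3, 72.4 and 72.9 CPM to 59.8, 63.3, 66.1 and 65.4 CPM, without overlap, which is -0.17 on the log2 scale (SE 0.06, adjusted p = 0.0592, edgeR) that passed with the GC and length trend removed (-0.20, adjusted p = 0.00737) and without mouse 188 (-0.20, adjusted p = 0.0365). Scn8a was the steadiest gene, with 436 to 455 CPM at 3w, 378 to 450 CPM at 5m and 430 to 437 CPM at 18m in input_TH. Its 8 log2 fold changes with age lay between -0.06 and 0.05, and the widest intervals (2 SE either side), in SC_SYN, were -0.23 to 0.21 from 3w to 5m and -0.21 to 0.23 from 5m to 18m.

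From 5m to 18m in input_TH, Scn2b had 0.15 (SE 0.05, adjusted p = 0.0539), Scn3b -0.17 (SE 0.06, adjusted p = 0.0819), Scn2a -0.13 (SE 0.06) and Scn4b 0.27 (SE 0.13). Each of these passed under at least 1 other setting, Scn2b with DESeq2 (0.14), Scn2a and Scn3b with library size (-0.18 and -0.22) and without mouse 191, and Scn4b without the filter on low counts (0.28). In SYN, the values of the 7 genes from 5m to 18m lay between -0.08 and 0.16 in input_SYN and between -0.24 and 0.20 in SC_SYN, with standard errors up to 0.16 and 0.19, so differences of that size were not detectable with 4 mice per age. For Scn3b in SC_SYN the 4 libraries of 5m (192 to 207 CPM) lay above those of 3w (166 to 190 CPM) and of 18m (161 to 189 CPM) without overlap, with log2 fold changes of 0.15 (SE 0.09, adjusted p = 0.329) and -0.12 (SE 0.09, adjusted p = 0.493) in edgeR.

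**Figure D4:**
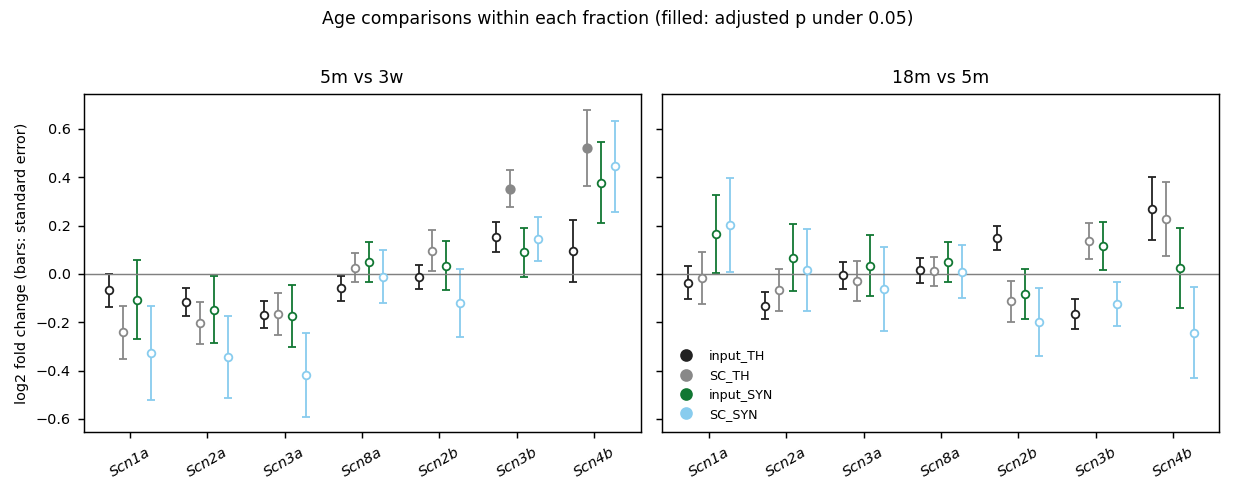
Log2 fold changes with standard errors for 5m against 3w (left) and 18m against 5m (right) in the 4 fractions, from edgeR, with filled points for an adjusted p under 0.05. Only Scn3b (0.35) and Scn4b (0.52) in SC_TH are filled.

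Whether the age effect differs between fractions was tested with an interaction term. For SYN against TH, 0 of 7 genes passed in SC (5m against 3w, where 0.0301% of all genes passed, and 18m against 5m, 0.0%) and in input (0.0224% and 2.42%). For SC against input, 0 of 7 passed in TH (2.33% and 1.78%) and in SYN (0.0% and 0.0%). At an unadjusted p under 0.05 the numbers were 0 and 1 of 7 in SC, 0 and 2 in input, 0 and 2 in TH, and 0 and 0 in SYN. Of all genes tested, 1324 and 2855 of 16630 were under it in SC and 1437 and 3168 of 17860 in input. In TH these were 4027 and 3137 of 18416, and in SYN 473 and 393 of 14301. DESeq2 also called 0 of 7 in each of these interactions. The value of Scn3b for 18m against 5m in SC_TH minus that in input_TH was 0.30 (SE 0.10, adjusted p = 0.0978) and of Scn2b -0.26 (SE 0.10, adjusted p = 0.180). Without mouse 191 both passed, with 0.37 (adjusted p = 0.0214) and -0.33 (adjusted p = 0.0378). For 5m against 3w, Scn4b had 0.40 (SE 0.22, adjusted p = 0.291) and passed in the paired fit with the mouse as a block, with 0.42 (SE 0.10, adjusted p = 0.0334). It did not pass in the paired fit with the GC and length trend removed as well.

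The alpha subunits were also set against each other as shares of their summed CPM per kb, a description with no test. Scn2a made up 35.8% to 39.6% of the alpha sum in input_TH and 42.1% to 48.4% in input_SYN, so the ranges did not overlap. Scn8a went the other way, with 35.7% to 40.1% in input_TH and 28.0% to 37.3% in input_SYN. In SC_TH the shares were 39.2% to 44.1% for Scn2a and 30.4% to 38.7% for Scn8a, and in SC_SYN 40.7% to 49.9% and 26.7% to 38.9%. Scn1a kept a similar share in input_TH (16.6% to 18.7%), SC_TH (16.4% to 20.3%), input_SYN (15.8% to 19.2%) and SC_SYN (13.1% to 17.9%). Scn3a took 6.69% to 7.86% in input_TH, and at most 6.10% in any other library. With age, the share of Scn2a in input_TH was 38.9% ± 0.46 (SD, n = 4) at 3w, 38.2% ± 0.65 at 5m and 36.1% ± 0.27 at 18m, while that of Scn8a was 36.5% ± 0.57, 37.3% ± 0.87 and 39.0% ± 0.93. Shares of 1 sum depend on each other, and the level of Scn8a itself did not rise. The group means were 28.3, 27.2 and 27.5 CPM per kb for Scn8a and 30.1, 27.9 and 25.4 CPM per kb for Scn2a. The 3 beta subunits together had 1.40 times the CPM per kb of the 4 alpha subunits in input_TH (median), 1.21 times in SC_TH, 1.27 times in input_SYN and 1.10 times in SC_SYN.

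Scn4b was the gene that varied most between mice. The genes most like it over the 48 libraries, by Pearson correlation of log2 CPM, included Adcy5 (r = 0.972) and Drd1 (0.955), and Drd1, a dopamine receptor, is known from projection neurons of the striatum, which lies under the cortex. For the other 6 genes the closest 3 were Gabrb2, Adam10 and Scn2a for Scn1a, Syt11, Emc7 and Gabrb2 for Scn2a, Adam22, Atp2c1 and Selenof for Scn3a, Sirpa, Ptpra and Ptprt for Scn8a, St3gal5, Tex2 and Acvr1b for Scn2b, and Plxnc1, Atp8a1 and Atrnl1 for Scn3b, with r from 0.983 to 0.994. These 48 libraries share mice and fractions, so the correlations are dominated by the SYN and TH difference and are given as a description.

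A list of 9 striatal genes (Drd1, Drd2, Adora2a, Ppp1r1b, Rgs9, Adcy5, Pde10a, Penk and Tac1), chosen after the values of Scn4b had been seen, was summed in each library. In 11 of 12 groups the mouse with the lowest Scn4b was also the lowest in this sum, and in 8 of 12 groups the highest was the highest. This is a description only, since the list holds Adcy5 and Drd1, which are among the genes most like Scn4b in these same libraries, and the 12 groups are 3 sets of 4 mice seen in 4 fractions. In SC_TH at 3w, mice 187 to 190 held 153, 141, 126 and 85.1 CPM of Scn4b beside 1819, 1444, 1228 and 880 CPM of the sum. At 5m, mice 191 to 194 held 165, 146, 201 and 215 CPM beside 1270, 1122, 1624 and 1687 CPM. The order of the 4 mice was the same for both measures at each of these ages. As a share of the sum, Scn4b was 8.41% to 10.2% in SC_TH at 3w, 12.4% to 13.0% at 5m and 13.4% to 15.5% at 18m, whereas in input_TH it was 13.9% to 15.3%, 13.8% to 16.6% and 14.7% to 17.1%. The share in SC_TH at 3w was thus below all later libraries of that fraction, while the sum itself overlapped between 3w (880 to 1819 CPM) and 5m (1122 to 1687 CPM). In input_SYN the share was 18.6% to 24.5% and in SC_SYN 15.8% to 21.3%. The part of the dissected tissue in the Scn4b values was not tested.

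**Figure D5:**
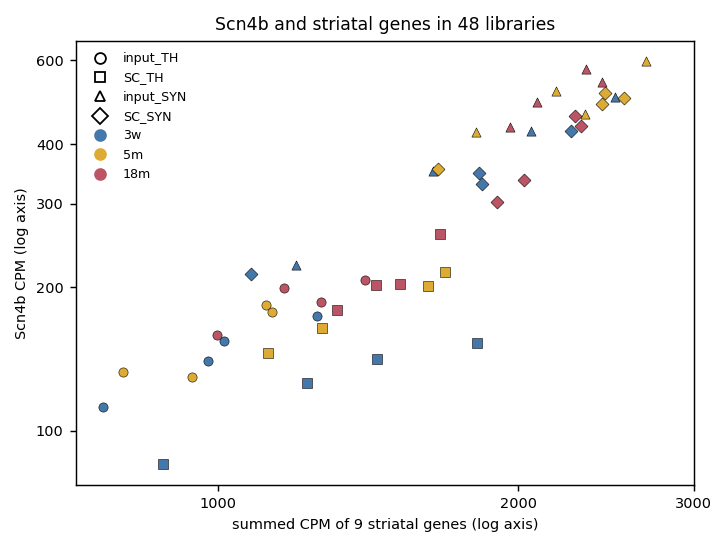
Scn4b CPM against the summed CPM of 9 striatal genes in 48 libraries (both axes logarithmic), with symbols for fractions and colours for ages. The SC_TH libraries of 3w (squares, 85.1 to 153 CPM of Scn4b) lie below the other libraries with a like striatal sum.

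Other subunits of the family were below the filter or higher in SYN in most comparisons. Scn4a, Scn10a and Scn11a did not pass the filter on low counts, with at most 4, 21 and 6 reads in any library. Scn7a, a sodium sensor, was higher in SYN by 1.20 to 1.80 on the log2 scale in input and by 0.95 to 1.42 in SC over the 3 ages. Scn9a, a subunit of sensory neurons, was higher by 0.73 to 0.85 in input and in SC at 3w (0.82) and 18m (0.63), whereas its difference of 0.26 in SC at 5m did not pass the test. With library size, 1 of these 2 genes was higher in each comparison except SC at 3w, where 0 of 2 passed. With age, Scn7a rose in input_TH from 3w to 5m (0.56). Within TH, Scn7a was lower in SC at 5m (-0.45).

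The fibroblast growth factor homologous factors, intracellular proteins that bind the channel's C-terminal tail, differed among themselves. Fgf14 was lower in SYN in all 6 comparisons, by between 0.75 and 1.32 on the log2 scale, and Fgf12 was lower in SC at 3w (-0.90), 5m (-1.23) and 18m (-0.71) and in input at 3w (-0.34) and 5m (-0.72), with 0.01 in input at 18m. Fgf13 was higher by 0.33 to 0.54 in all 6, but with library size it was lower in SC at 5m (-0.26) and no Fgf gene was higher in any of the 6. Fgf11 was lower in SC at 5m (-0.29), with values of -0.24 to 0.02 in the others. Within TH, Fgf12 was higher in SC at 3w (0.49), 5m (0.36) and 18m (0.85), Fgf13 at 5m (0.27) and 18m (0.34), and Fgf14 was lower at 3w (-0.34) and 5m (-0.41). From 3w to 5m Fgf13 fell in input_TH (-0.38), and from 5m to 18m Fgf12 (-0.37) and Fgf14 (-0.26) fell there. The difference between input_SYN and input_TH in the later change of Fgf12 was 0.73. No Fgf gene passed in SC against input within SYN.

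Genes of the axon initial segment and node were higher in SYN in 11 of 12 cases in each of the 6 comparisons, with medians of 1.46 to 1.58 on the log2 scale. Of all genes tested, 31.7%, 32.6% and 32.9% were higher in input and 31.1%, 32.1% and 29.9% in SC. The exception among the 12 was Trim46, a microtubule protein of the initial segment, which was lower in input at 18m (-0.43). With library size, 10 or 11 of 12 were still higher and 1 was lower. The largest values were those of the adhesion molecules Cntn1 (2.18, 2.25 and 2.39 at 3w, 5m and 18m) and L1cam (1.95, 2.23 and 2.13) in input, and in SC of L1cam (1.92) and Cntn1 (1.82) at 3w, L1cam (2.00) and Sptbn1 (1.94), a spectrin, at 5m, and Sptbn1 (2.92) and Ank3 (2.34), the ankyrin that holds sodium channels at the initial segment, at 18m. Within TH, 6, 7 and 7 of 12 were higher in SC, where 26.1%, 29.9% and 31.3% of all genes tested were higher. They were led by Cntn1 (0.74, 0.75 and 0.86) and L1cam (0.53, 0.81 and 0.79). At each age 3 of 12 were lower. In either direction 9719, 11433 and 11791 of 18416 genes were called. Of these, 4812, 5507 and 5761 were higher, so 3 of 12 lower was near the background. The 3 that were lower at each age were Ank3 (-0.35, -0.42 and -0.50) and the spectrins Sptbn1 (-0.45, -0.63 and -0.69) and Sptbn4 (-0.33, -0.33 and -0.73). Within SYN, L1cam (0.43) was higher and Sptbn4 (-0.56) lower at 3w, and L1cam (0.53) and Nrcam (0.30) were higher at 5m. At 18m, 4 of 12 were higher, led by Sptbn1 (0.59) and Ank3 (0.47). Of 14301 genes tested in SYN at 18m, 1799 were called, 958 of them lower. Nfasc, the neurofascin gene of initial segments and of glial loops at nodes, fell from 3w to 5m in all 4 fractions, by 0.73 in input_TH, 0.65 in SC_TH, 0.91 in input_SYN and 0.84 in SC_SYN on the log2 scale. Oligodendrocyte markers fell too (6 of 6 in input_TH, 4848 to 6083 CPM at 3w and 1929 to 2204 CPM at 5m), and their part in the Nfasc values was not tested. In input_TH, 11.8% of all genes tested were called in either direction from 3w to 5m. Besides, Cntn1 fell in input_TH (-0.21), and Cntn2 rose in SC_TH (0.43) and SC_SYN (0.37). From 5m to 18m, Sptbn4 (0.27) and Cntn2 (0.20) rose in input_TH, and none of the 12 passed in the other fractions.

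Regulators of sodium channel RNA and protein were mixed. In SC, 0, 2 and 3 of 9 were higher and 5, 4 and 4 lower in SYN at 3w, 5m and 18m, and in input 2, 3 and 3 were higher and 3, 3 and 2 lower. Of all genes tested, 31.1%, 32.1% and 29.9% were higher and 32.4%, 35.8% and 32.2% lower in SC, and 31.7%, 32.6% and 32.9% were higher and 39.3%, 40.1% and 39.4% lower in input, so counts of 2 or 3 of 9 were near the background. Rcor1, a partner of the repressor Rest, was lower by 1.17 at 3w and 0.92 at 5m in SC on the log2 scale, as was the splicing regulator Rbfox1 (-0.87 and -1.02), while at 18m Rest and Celf4, an RNA-binding protein, led with 0.76 each. In input, Rcor1 (-1.16 at 3w and -0.84 at 5m), Celf4 (0.77, 1.11 and 1.02) and, at 18m, Pum2 (0.84), a translational repressor, led. With library size, 0, 0 and 1 of 9 were higher in SC and 1, 1 and 2 in input, and Nova2 (at 5m) and Rbfox2 (18m) turned from higher to lower in input. Within TH, Rbfox1 (0.83, 0.80 and 0.89) had the largest value at each age among the genes reported, followed by Rbfox2 at 3w (0.34) and 5m (0.28) and Nedd4, a ubiquitin ligase, at 18m (0.41), and within SYN Pum2 (-0.61) and Nova2 (-0.54) at 3w, Pum2 (-0.62) and Celf4 (-0.37) at 5m and Nedd4 (0.28) at 18m. With age, Nova2 fell in input_TH (-0.23) and Nedd4l rose in SC_TH (0.29) and Celf4 in SC_SYN (0.49), all from 3w to 5m, and no regulator passed from 5m to 18m.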

How the data were processed

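Cortex RNA of 12 mice was sequenced in 48 libraries, 12 per fraction. Per the labels and the study's methods, the authors prepared rRNA-depleted, directional libraries with UMI adaptors, demultiplexed with bcl2fastq 2.20.0.422, used TopHat2 2.1 for alignment (GRCm38) and featureCounts, without strand, for gene-level counting. Whether UMIs were used to remove duplicates is not stated, and the labels do not say which libraries shared a run. The deposited values are unnormalized counts for 48526 genes, of which 48144 were matched to GENCODE M21 for symbols, positions and exonic length (the others hold 0.0596% of the counts). Totals per library ranged from 1780267 to 18590040.

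The test was that of edgeR 4.0.16 under R 4.3.3 (glmQLFit and glmQLFTest, TMM, filterByExpr, Benjamini-Hochberg adjustment over all genes tested, threshold 0.05), within a fraction over 12 libraries with the 3 ages as groups, and between fractions over 24 libraries with 6 groups. Printed CPM use one TMM scaling over the 48 libraries, and fits use their own. Alternatives were DESeq2 1.42.0, library size, no filter on low counts, removal of a loess trend on GC content and length, the mouse as a block, and each mouse left out. The 7 genes and all lists were chosen with earlier results of these data known. The 7 genes are named in every comparison, all tested genes of the other subunits and homologous factors by name, and from the remaining lists the 2 largest called changes; a striatal list was added after seeing the values, and Trim46, the scaffold genes lower in SC_TH and the genes whose sign depends on scaling are named outside that rule, after their values were seen. The 4 libraries of a mouse come from 1 animal, so same-numbered libraries are paired by origin. Their deviations from the group means correlated with a median r of 0.144 over genes (-0.610 to 0.631). Libraries of 1 group differed by 1.98 to 32.2 times the sampling noise (chi-square per degree of freedom, 72 pairs), so none was counted as a duplicate. The code was tested on simulated counts. Some genes of the lists are not reported here and enter no list count or sum. No sequences are shown, since no sequence table was used here.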

Additional observations from a re-analysis of the deposited data

Results flagged for a closer look

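Within groups of 4 mice, a library was marked when its gap to the nearest other library, as a share of the group's whole range, passed Dixon's critical value. Of 84 groups (7 genes in 12 groups of libraries), 3 were marked, where chance alone would mark about 1 in 20, or 4.2. In SC_SYN at 18m, mouse 198 held 1910 CPM of Scn2a against 1268 to 1361 CPM in the other mice (gap share 0.855). The same library held 200.1 CPM of Scn3a against 129 to 140 CPM (0.846). In input_TH at 5m, mouse 191 held 378 CPM of Scn8a against 442 to 450 CPM (0.887). Without mouse 198, SC_SYN against SC_TH at 18m gave log2 fold changes of 1.27 for Scn2a and 0.93 for Scn3a, and without mouse 191, input_SYN against input_TH at 5m gave 1.77 for Scn8a, each past the threshold.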

How the results depend on the processing

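Of 62 called values of the 7 genes, recomputed 624 times under the alternatives, 605 stayed past the threshold, 19 did not and 0 reversed. Another 25 values passed only under an alternative, and 178 that were called in neither changed sign (-0.29 to 0.16). The cause of these moves was not tested.

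The number of the 7 genes called moved as follows. From 3w to 5m in input_TH it went from 0 to 2 (Scn2a and Scn3a) with the GC and length trend removed, and to between 0 and 1 with a mouse left out (1 without mouse 188). From 5m to 18m in input_TH it went from 0 to 1 with DESeq2, 2 with library size and 1 without the filter on low counts, and to between 0 and 2 with a mouse left out (2 without mouse 191, 1 without mouse 195). From 3w to 5m in SC_TH it went from 2 to 1 with the trend removed, and to between 1 and 4 with a mouse left out (4 without mouse 192). For 18m against 5m in SC_TH minus input_TH it went from 0 to between 0 and 2 (2 without mouse 191). For SC_SYN against input_SYN at 5m it went from 1 to 0 without the filter and to between 0 and 0 with a mouse left out, and at 18m from 1 to 2 with DESeq2 and 2 with the trend removed, and to between 0 and 1 (0 without mouse 197).

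For SC_SYN against SC_TH at 18m it went from 7 to 6 with library size. For SC_TH against input_TH it went from 5 to between 4 and 5 with a mouse left out at 3w (4 without mouse 187 or 188), from 5 to 4 with library size and 6 without the filter at 5m, and at 18m from 6 to 5 with library size and to between 5 and 6 with a mouse left out (5 without mouse 195 or 198).

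With the mouse as a replicate block, the count for SC_TH against input_TH was 6, 6 and 7 at the 3 ages, the count for 5m against 3w in SC_TH minus input_TH went from 0 to 1, and for SC_SYN against input_SYN at 18m from 1 to 2. With block and trend removal together the counts for SC_SYN against input_SYN were 2 at 5m and 3 at 18m. For SC_TH against input_TH, and for 5m against 3w in SC_TH minus input_TH, they were those of the main fit. Beside the values of Scn4b given with the comparisons, the block alone changed no other call. Age comparisons within a fraction allow no block, since the ages are different animals.

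Library size moved the share of higher among called genes from 40.3% to 59.2% (5m against 3w) and 52.7% to 32.6% (18m against 5m) in input_TH, from 50% to 39.2% in SC_SYN (5m against 3w) and from 48.8% to 59.4% for SC_SYN against input_SYN at 3w. For 18m against 5m in input_SYN minus input_TH it went from 41.7% to 67.9%, or 8.33% with the trend removed. For SC_TH minus input_TH it went from 43.1% to 22.8% (63.1% with DESeq2, 14.8% with the trend removed) from 3w to 5m, and from 34.1% to 52.9% (19.1% with the trend removed) from 5m to 18m. Without division by length, 42 of 48 shares of the alpha sum moved by more than their SD.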
